A study of Mus musculus with 16 samples.

Results

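The tRNA genes for arginine (Arg), asparagine (Asn) and tryptophan (Trp) of mouse embryonic stem cells were examined base by base for 5-methylcytosine. They were taken as every reference of the small-RNA libraries whose name holds Arg, Asn or Trp followed by a 3-letter anticodon, and every cytosine listed for them was used. This gave 26 of the 182 tRNA references and 497 of their 3459 listed cytosines. Of the 26, 17 read arginine codons (anticodons ACG in 2 references, CCG in 3, CCT in 3, TCG in 4 and TCT in 5), 5 were tRNA-Asn-GTT and 4 were tRNA-Trp-CCA.

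The tested cells were Dnmt2-/- embryonic stem cells, and the cells they were set against were wild type. Both were of the J1 strain background per the labels and were grown on feeder fibroblasts, which were removed before harvest by letting them attach to dishes. Total RNA was split at 200 nt, and the small fraction, depleted of rRNA, was bisulfite sequenced in 3 knockout and 3 wild-type libraries. No label tells if replicates were separate cultures or clones, so a p-value here measures only the spread between libraries, which may be technical.

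Bisulfite deaminates plain cytosine to uracil but spares 5-methylcytosine. Non-conversion, the share of a site's reads that kept the cytosine (in percent), thus served as its methylation level. In mammalian tRNAs, Dnmt2 (gene symbol Trdmt1) methylates the cytosine at position 38 of the anticodon loop of tRNA-Asp, tRNA-Gly and tRNA-Val. Nsun2 methylates cytosines where the variable loop meets the T stem, at positions 48 to 50, and the wobble cytosine (position 34) of tRNA-Leu-CAA, while Nsun6 methylates position 72 of the acceptor stem of tRNA-Thr and tRNA-Cys. Methylation of the Dnmt2 and Nsun2 sites is known to protect tRNAs from cleavage.

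The labels were checked first. In the long-RNA libraries with the same labels, 0, 0 and 0 cytosines of the Trdmt1 transcript from base 200 onward were listed in the knockout, against 95, 127 and 48 in wild type. The transcript was not absent: over its whole length 32, 16 and 32 cytosines were listed in the knockout and 127, 159 and 63 in wild type. Its mean coverage overlapped, at 1.53, 0.487 and 1.23 reads in the knockout and 3.84, 6.19 and 1.17 in wild type. All 6 embryonic stem cell markers were listed in some library, with a summed mean coverage of 2279 to 2777 reads in the knockout and 623 to 2706 in wild type. Most of the sum was Dppa5a, at 2108, 1859 and 1612 reads in the knockout and 1107, 1695 and 396.5 in wild type. Nanog was low, at 9.8, 13.1 and 7.7 reads in the knockout and 5.1, 7.7 and 1.4 in wild type. Esrrb was listed only in knockout replicate 1 (2.75 reads) and wild-type replicate 2 (3 reads). Of 5 feeder fibroblast markers 4 were listed, at 10.9 to 14.8 reads in the knockout and 10.1 to 30.8 in wild type, and Pdgfrb was not. In the small libraries, pooled non-conversion at position 38 of the known Dnmt2 substrates was 3.25%, 3.13% and 3.33% in the knockout, against 89.8%, 89.7% and 91.9% in wild type (two-sided exact permutation p = 0.1, the lowest that 3 libraries against 3 can give). Background non-conversion averaged 1.97% ± 0.164 in the knockout and 1.89% ± 0.155 in wild type (SD, n = 3 each; two-sided exact permutation p = 0.6). The replicate 3 libraries of both genotypes stood apart from the others. Read levels of the tRNA references differed between replicate 3 and the other replicates of its genotype by a chi-square of 1149 to 2144 per degree of freedom, against 112 between knockout replicates 1 and 2 and 55.9 between wild-type replicates 1 and 2. Counts of calls are therefore also given without both replicate 3 libraries, a comparison added after the data were seen.

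Arg, Asn and Trp references took a small part of the reads, from 0.469% to 0.640% of the summed coverage in the knockout libraries and from 0.624% to 0.630% in the wild-type libraries. The median coverage of their listed cytosines was 121 to 201 reads in the knockout and 118 to 138 in wild type. A coverage of 10 or more in all 6 libraries was reached by 322 of the 497 cytosines, which lay in 228 cases in tRNA-Arg, in 59 in tRNA-Asn and in 35 in tRNA-Trp. Near-identical gene copies can share reads, and how such reads were placed is not given in the sources used here, so the value of a single copy is uncertain.

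Most cytosines of these tRNAs were read as unmethylated in both genotypes. Of the 322, 117 had a mean non-conversion over the 6 libraries under 1%, 199 had 1% to 5%, 1 had 5% to 10%, and 5 had 10% or more. The 322 include positions 74 and 75, past the gene's last base in the added CCA end, each covered in 20 references. These also count among the cytosines tried for calls below. The median cytosine stood at 1.26% in the knockout and 1.26% in wild type. Summed over cytosines at 10% or less, non-conversion was 1.70%, 1.61% and 1.47% in the knockout libraries and 1.69%, 1.66% and 1.5% in the wild-type libraries, and the ranges overlapped.

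**Figure D1:**
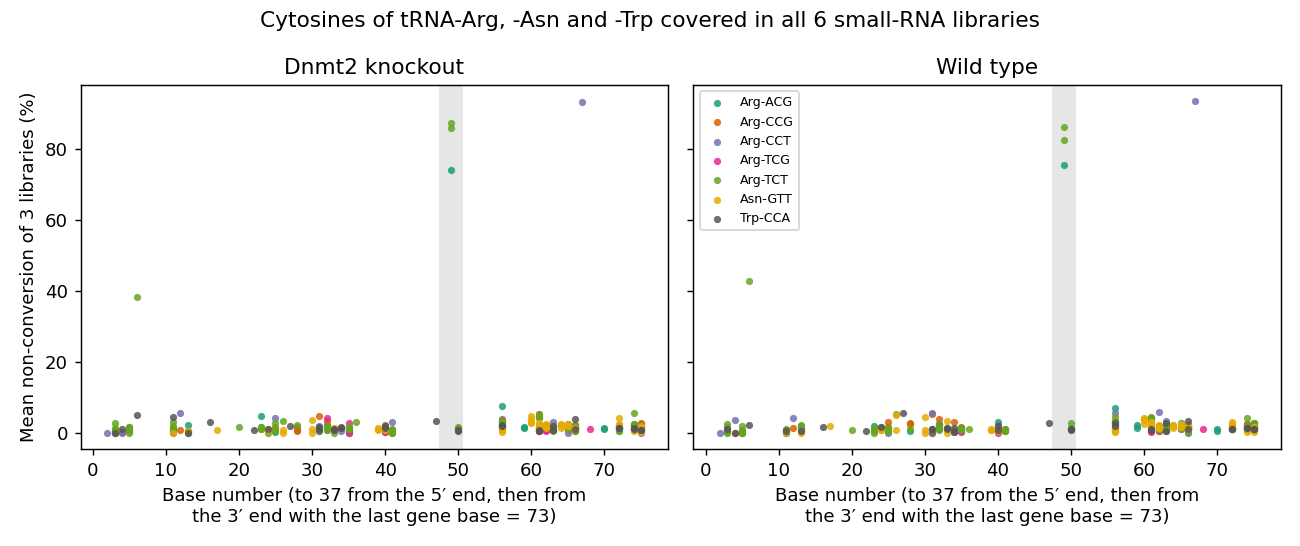
Mean non-conversion over 3 libraries (%, y axis) of each Arg, Asn and Trp cytosine covered by 10 or more reads in all 6 libraries, against its base number (x axis), in Dnmt2 knockout (left) and wild type (right), coloured by anticodon. The grey band marks positions 48 to 50, bases of the longer Arg-TCT genes beyond 73 are not drawn, and 5 cytosines stand at 10% or more in both panels.

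The number of methylated cytosines was the same in both genotypes. A cytosine was called methylated where its non-conversion was above the background of its libraries and at least 10% in each of the 3. In the knockout 5 of 342 such cytosines were called (1.46%), against 196 of 2650 (7.40%) over all tRNAs. In wild type 5 of 323 were called (1.55%), against 189 of 2395 (7.89%) over all tRNAs. The same 5 cytosines were called in both genotypes, 5 were also called in each without the replicate 3 libraries, and all 5 lay in tRNA-Arg: 0 of 63 in the knockout and 0 of 59 in wild type were called in tRNA-Asn, and 0 of 41 and 0 of 35 in tRNA-Trp.

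Of the 5, 3 were the cytosine at position 49, the first base of the T stem, counted from the 3′ end of the gene with its last base as 73. In the tRNA-Arg-TCT gene chr1.trna730 (mm9 chr1:175320460-175320533, plus strand) this cytosine is base 50. It stood at 84.9%, 89.4% and 87.8% non-conversion in the knockout, against 87.4%, 83.8% and 87.7% in wild type, from 73 to 245 reads per library. The genotypes overlapped, with means of 87.4% ± 2.29 and 86.3% ± 2.13 (SD, n = 3 each). The log2 odds ratio of non-conversion, knockout over wild type, was 0.16 (95% interval -0.57 to 0.90; edgeR adjusted p = 0.921).

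The second tRNA-Arg-TCT gene with this cytosine was chr3.trna628 (chr3:121995866-121995950, minus strand), where it is base 61 because the gene is 12 bases longer. It stood at 84.8%, 86.3% and 86.4% in the knockout, against 78.6%, 82.8% and 86.4% in wild type, from 169 to 345 reads. Knockout values lay at the upper end of the wild-type range, with means of 85.8% ± 0.914 and 82.6% ± 3.90 (SD, n = 3 each). The log2 odds ratio was 0.37 (95% interval -0.23 to 0.98; edgeR adjusted p = 0.765).

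In the tRNA-Arg-ACG gene chr13.trna951 (chr13:23592391-23592463, minus strand) position 49 was the deepest covered of the 5, with 527 to 1186 reads. It stood at 72.9%, 74.4% and 75.4% in the knockout, against 71.2%, 75.8% and 79.5% in wild type, so the knockout range lay within the wild-type range. The means were 74.2% ± 1.27 and 75.5% ± 4.17 (SD, n = 3 each), with a log2 odds ratio of -0.10 (95% interval -0.59 to 0.39; edgeR adjusted p = 0.923). The second tRNA-Arg-ACG gene, chr3.trna1040, had no listed cytosine at positions 48 to 50.

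The other 2 called cytosines lay in the acceptor stem. Base 67 of the tRNA-Arg-CCT gene chr17.trna995 (chr17:23685735-23685807, minus strand) was read as cytosine in 19 of 23, 24 of 24 and 33 of 34 reads in the knockout, against 18 of 20, 28 of 31 and 11 of 11 in wild type. These are 82.6%, 100% and 97.1% in the knockout and 90%, 90.3% and 100% in wild type, which overlap. The log2 odds ratio was 0.36 (95% interval -2.14 to 2.86; edgeR adjusted p = 0.923), although the mean level was lower by 0.218 percentage points in the knockout. No other Arg, Asn or Trp reference listed a cytosine at position 67, and among the other tRNAs 1 of 35 cytosines there was called in the knockout and 1 of 31 in wild type.

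Base 6 of chr3.trna628 was read at an intermediate level, 43.0%, 35.6% and 36.6% in the knockout against 53.5%, 27.5% and 47.8% in wild type, from 67 to 101 reads. All 3 knockout libraries lay between the lowest and the highest wild-type library, and the means were 38.4% ± 4.03 and 42.9% ± 13.7 (SD, n = 3 each). The log2 odds ratio was -0.26 (95% interval -1.22 to 0.71; edgeR adjusted p = 0.920). Among the other tRNAs 1 of 22 cytosines at base 6 was called in the knockout and 0 of 16 in wild type. A cytosine at base 6 was listed in 10 Arg, Asn and Trp references. The other reference with 10 or more reads there in all 6 libraries was the tRNA-Trp-CCA gene chr11.trna1820, with 1 of 34, 3 of 32 and 1 of 45 reads in the knockout and 2 of 65, 2 of 63 and 0 of 13 in wild type.

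**Figure D2:**
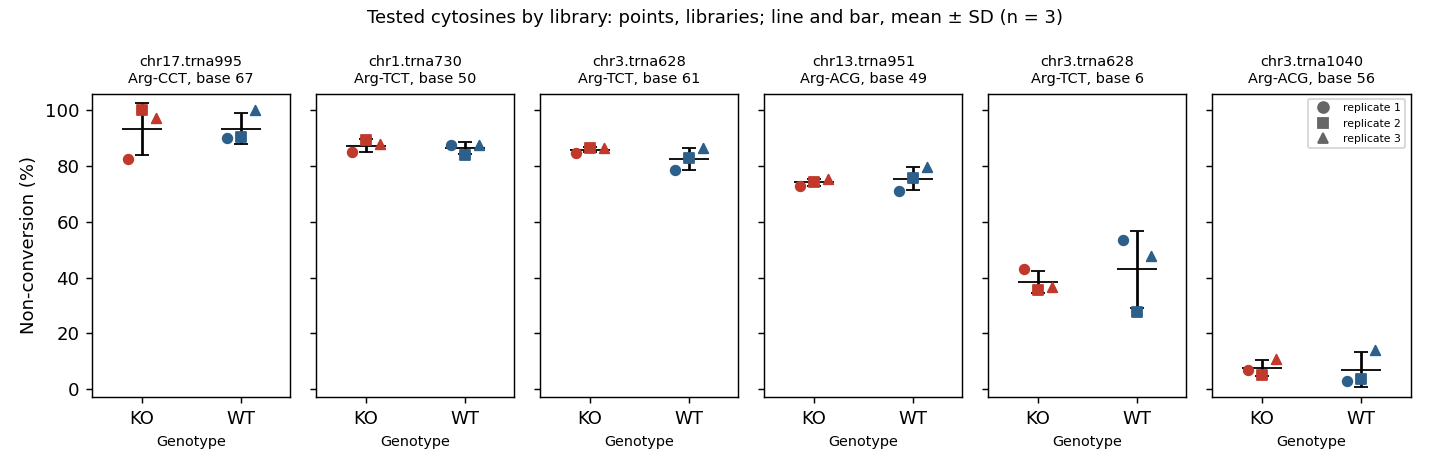
Non-conversion (%, y axis) in each library of the 6 Arg cytosines tested between genotypes, knockout (KO, red) left of wild type (WT, blue) in each panel, with bases counted from the 5′ end of the reference. Lines and bars are means ± SD of 3 libraries, and in every panel the genotypes overlap.

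No Arg, Asn or Trp cytosine passed the comparison of the genotypes (edgeR quasi-likelihood, Benjamini-Hochberg adjusted). It took cytosines with 10 or more reads in all 6 libraries whose mean non-conversion was at least 5%, which left 6 from these tRNAs, all in tRNA-Arg. Of these 0 passed an adjusted p of 0.05 and 0 had an unadjusted p under 0.05. Over all tRNAs 34 of 265 had an unadjusted p under 0.05 and 14 passed (5.28%), all 14 lower in the knockout. Of the 14, 10 were position 38 of tRNA-Asp-GTC, tRNA-Gly-GCC and tRNA-Val-AAC, the base that Dnmt2 methylates. By the numbering from the 3′ end, no Arg, Asn or Trp reference listed a cytosine there. The median difference, knockout minus wild type, was 0.24 percentage points over the 6 and -0.28 over the 265. With 1 library left out the filters were applied anew, so the cytosines tested could change. The first median then ran from -0.91 (9 cytosines, without wild-type replicate 2) to 2.06 (7 cytosines, without knockout replicate 1). The second turned to 0.034 without knockout replicate 3, over 270 cytosines. With the replicate number as a block 0 of the 6 and 27 of the 265 (10.2%) passed, and without both replicate 3 libraries 0 of 13 and 33 of 295 passed.

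The sixth tested cytosine was base 56 of chr3.trna1040 (chr3:19527959-19528031, minus strand), in the T loop. It stood at 6.98%, 5.13% and 10.7% in the knockout, against 2.90%, 3.68% and 14.1% in wild type, and the replicate 3 library was the highest of each genotype. The means were 7.61% ± 2.85 and 6.90% ± 6.27 (SD, n = 3 each), with a log2 odds ratio of 0.49 (95% interval -0.85 to 1.82; edgeR adjusted p = 0.836). It passed when reads were summed over the libraries of a genotype, a test that ignores the spread between libraries (Fisher's exact test, adjusted p = 0.028). In 20 references position 56 was covered in all 6 libraries, with means of 0.261% to 7.61% in the knockout and 0.200% to 6.90% in wild type.

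Lowering the minimum mean non-conversion to 1% brought 205 Arg, Asn and Trp cytosines into the test. Again 0 passed and 7 had an unadjusted p under 0.05. Over all tRNAs 15 of 1577 passed (0.951%) and 90 had an unadjusted p under 0.05. The smallest p belonged to base 75 of the tRNA-Arg-TCT gene chr13.trna985, at 1.71%, 1.96% and 1.84% in the knockout against 0.899%, 0.805% and 0.976% in wild type. The knockout libraries were all above the wild-type ones, both genotypes were near background, and the edgeR adjusted p was 0.657.

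The junction of variable loop and T stem, where Nsun2 acts, differed between the anticodons mainly in whether a cytosine was listed there at all. Of the 26 references, 17 (65.4%) listed no cytosine at positions 48 to 50, against 17 of 115 (14.8%) of the other tRNAs, not counting those for Leu, Ser and Tyr, whose variable loops differ. None of the 5 tRNA-Asn, 3 tRNA-Arg-CCG and 3 tRNA-Arg-CCT references listed one. Position 48 held no listed cytosine in any of the 26, position 49 held one in 3 and position 50 in 8, among them all 4 tRNA-Trp. No sequence was at hand, and cytosines with under 3 reads were not listed. In the least-read references, such as chr3.trna285 and chr11.trna1022, a missing cytosine cannot be told from an uncovered one.

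Where a cytosine stood at position 49 it was highly methylated, and where one stood at position 50 it was not. At position 49 all 3 Arg cytosines were called in both genotypes, as were 59 of 59 in the knockout and 50 of 52 in wild type among the other tRNAs. At position 50, 0 of 6 were called in either genotype, against 15 of 42 in the knockout and 13 of 37 in wild type among the other tRNAs. Pooled over copies, position 49 averaged 86.3% ± 1.27 in the knockout and 83.6% ± 2.94 in wild type in tRNA-Arg-TCT (2 copies). Position 50 averaged 1.3% ± 0.378 and 1.41% ± 0.582 in tRNA-Arg-ACG, 0.626% ± 0.0922 and 1.02% ± 0.373 in tRNA-Arg-TCG, 1.15% ± 0.733 and 1.5% ± 0.692 in tRNA-Arg-TCT, and 0.558% ± 0.0742 and 0.810% ± 0.228 in tRNA-Trp-CCA (knockout and wild type, SD, n = 3 each). These means lay under the lowest library background, 1.77%, but tRNA-Arg-TCT in wild type stood at 1.80% with each copy weighted equally and at 1.84% without wild-type replicate 2. In the knockout it stood at 0.737% without replicate 2.

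In 2 genes the contrast lay between neighbouring bases. In chr13.trna951, position 49 stood at 74.2% in the knockout and 75.5% in wild type, and position 50, the next base, at 1.3% and 1.41%. The gene chr3.trna628 likewise listed both positions.

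**Figure D3:**
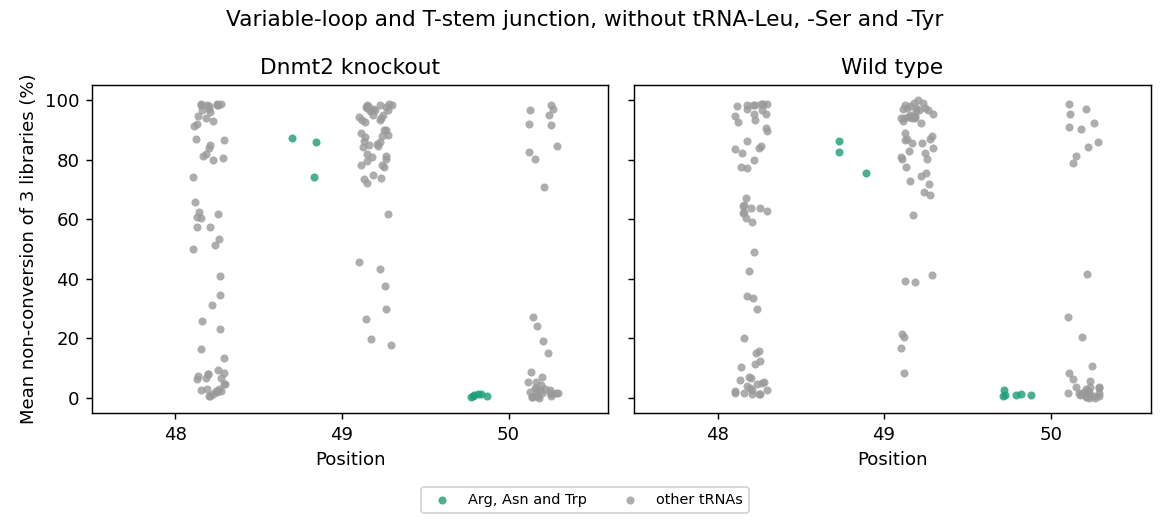
Mean non-conversion over 3 libraries (%, y axis) at positions 48, 49 and 50 (x axis, points spread sideways) of Arg, Asn and Trp references (green) and of other tRNAs without Leu, Ser and Tyr (grey), in Dnmt2 knockout (left) and wild type (right). The 3 Arg cytosines at position 49 lie between 74.2% and 87.4% in the knockout and between 75.5% and 86.3% in wild type, and the 6 at position 50 lie under 3%.

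The anticodon loop of these tRNAs was read as unmethylated. By the numbering from the 3′ end no Arg, Asn or Trp reference listed a cytosine at position 38, the base that Dnmt2 methylates in its substrates. The wobble position 34 held a cytosine in 10 references, those with anticodons CCG, CCT and CCA. In the 5 of them covered in all 6 libraries it averaged 0.375% to 1.22% in the knockout and 0.153% to 3.00% in wild type. The wobble cytosine of tRNA-Leu-CAA, by contrast, was called in 4 of 4 copies in each genotype.

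Position 32, at the start of the anticodon loop, held a cytosine in 23 references. In the 15 covered in all 6 libraries its mean lay between 0% and 4.07% in the knockout and between 0% and 3.85% in wild type. In tRNA-Arg-TCT and tRNA-Arg-CCT this cytosine is known as a site of 3-methylcytosine, another modification, which is not the one these libraries were made to read. It stood at 1.75% ± 1.20 in the knockout and 1.17% ± 0.832 in wild type in the tRNA-Arg-TCT gene chr19.trna637, and at 1.25% ± 0.368 and 0.865% ± 0.770 in chr3.trna628 (SD, n = 3 each). The middle anticodon base, position 35, was covered in 14 references. Its highest mean was 3.03% in the knockout and 1.70% in wild type, and its highest value in a single library was 9.09%, in knockout replicate 2 at base 36 of chr1.trna730.

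Toward the 3′ end, position 72, where Nsun6 acts in tRNA-Thr and tRNA-Cys, was covered in 15 references. Its means lay between 0.455% and 4.0% in the knockout and between 0.887% and 3.09% in wild type, whereas 6 of 6 cytosines of tRNA-Thr and tRNA-Cys were called there in each genotype. In the T stem, position 61 was covered in 20 references, with means of 0.410% to 5.22% in the knockout and 0.292% to 4.48% in wild type. In the tRNA-Asn-GTT gene chr10.trna381 and the tRNA-Trp-CCA gene chr10.trna857, the most-read of the 26, it was under the library background, at 1.54% and 0.694% in the knockout and 1.55% and 0.934% in wild type. Means in the tRNA-Asn-GTT genes chr1.trna814 (2.71% and 2.79%, knockout and wild type) and chr3.trna283 (2.48% and 2.86%) were above the average background. Those in the tRNA-Arg genes chr3.trna1040 (0.905% and 1.52%), chr3.trna628 (1.19% and 1.51%) and chr7.trna387 (1.71% and 1.47%) were under it. The highest means were found in tRNA-Arg genes, of which 3 are given here, chosen after their values were seen. Position 61 stood at 5.22% ± 0.798 in the knockout and 4.15% ± 0.227 in wild type in the tRNA-Arg-CCG gene chr11.trna945, at 874 reads or more. It was 5.18% ± 0.579 and 4.48% ± 0.546 in chr19.trna637 and 4.42% ± 0.986 and 4.24% ± 0.455 in the tRNA-Arg-CCT gene chr11.trna1234 (SD, n = 3 each). In chr10.trna381 position 60, the last base of the T loop and base 61 of the gene, stood at 3.88% ± 0.622 in the knockout and 4.03% ± 0.773 in wild type, from 3070 reads or more. None of these values reached the 10% that a call needs.

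Most mammalian tRNA-Arg-TCT genes carry a short intron next to the anticodon that splicing removes, and 4 of the 5 references here were 85 to 87 bases long, 12 to 14 more than 73. The extra bases were taken to start at base 38, where tRNA introns lie. They held 7 listed cytosines, all covered in every library, with means of 0.567% to 4.54% in the knockout and 0.497% to 5.97% in wild type. Reads covered these bases: coverage of an intron cytosine was 0.760 to 1.10 times that of the nearest listed cytosine before the intron, over genes and libraries. At the nearest listed cytosine after the intron, reads were more numerous in chr13.trna985 and chr19.trna637 and fewer in chr11.trna1818. In chr3.trna628 they lay on either side. References that hold the intron may miss reads of spliced tRNA, so the spliced share cannot be told. In chr19.trna637 base 40 had 286, 274 and 287 reads in the knockout and 362, 294 and 184 in wild type, and base 35 had 280, 266 and 282 in the knockout and 360, 284 and 179 in wild type. Base 54, after the intron, had 410, 402 and 655 in the knockout and 402, 434 and 252 in wild type. The intron cytosine at base 50 of that gene stood at 4.23%, 4.14% and 2.24% in the knockout against 6.35%, 5.47% and 6.08% in wild type. All knockout libraries were below the wild-type ones, and the edgeR adjusted p at a minimum mean of 1% was 0.892.

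Reads were spread unevenly along the genes. In chr10.trna381, the deepest-read of the 26, 48, 23 and 18 reads covered base 3 in the knockout and 12, 24 and 5 in wild type. At base 57 it had 3073, 3974 and 10972 reads in the knockout and 3560, 3691 and 5679 in wild type. Over the 20 references listed in all 6 libraries with a cytosine near the 5′ end, coverage of the last listed cytosine up to base 13 had a median of 16%, 9.49% and 1.97% of that at the deepest cytosine in the knockout, against 9.50%, 10.3% and 2.43% in wild type. Replicate 3 was the lowest of its genotype in this share in 15 of 20 references in the knockout and in 14 of 20 in wild type.

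A few genes departed from that shape. In chr1.trna730, the tRNA-Arg-TCT gene with no extra bases at the intron site, coverage was low between 2 well-read ends. Base 24 had 102, 66 and 80 reads in the knockout and 102, 123 and 49 in wild type, base 33 had 26, 10 and 38 in the knockout and 24, 27 and 11 in wild type, and base 50 had 86, 85 and 245 in the knockout and 111, 130 and 73 in wild type. The tRNA-Trp-CCA gene chr11.trna1820 was read in its 5′ part, with 34, 32 and 45 reads at base 4 in the knockout and 65, 63 and 13 in wild type. At base 39 it had 5, 8 and 26 in the knockout and 8, 6 and 3 in wild type. Levels of the last bases of chr11.trna1820 were not measurable at this depth.

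**Figure D4:**
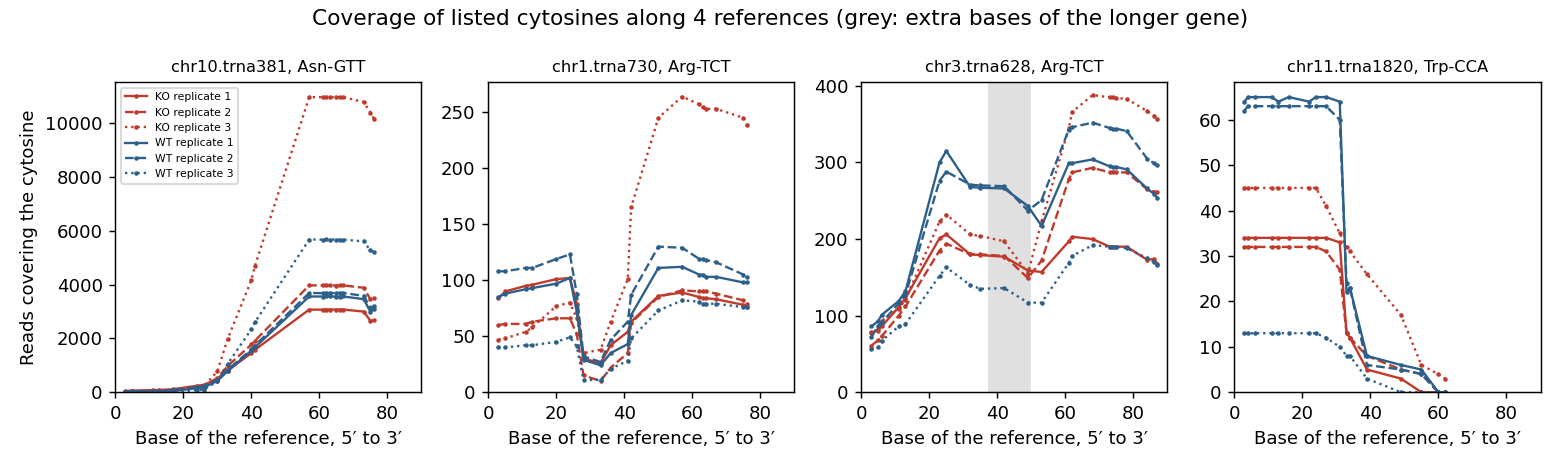
Reads covering each listed cytosine (y axis, own scale in each panel) along 4 references (x axis, bases from the 5′ end), with knockout (KO) in red, wild type (WT) in blue and 1 line style per replicate. The tRNA-Asn-GTT gene chr10.trna381 is read mostly from base 40 on, chr1.trna730 dips near base 33, chr3.trna628 is read through its extra bases (grey), and chr11.trna1820 is read in its 5′ part.

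Read levels of the 3 tRNA families did not differ detectably between the genotypes. The level of a reference was its number of reads at its deepest cytosine, scaled to library size as RPM with TMM factors, and a reference unlisted in a library counted as 0 there. Of 23 Arg, Asn and Trp references with a mean of 10 reads or more, 0 passed an adjusted p of 0.05 (edgeR quasi-likelihood test) and 0 had an unadjusted p under 0.05. Over all tRNAs 0 of 158 passed (0.00%) and 9 had an unadjusted p under 0.05. The median log2 fold change, knockout over wild type, was -0.09 over the 23 and 0.06 over the 158 with TMM, and -0.21 and -0.05 with DESeq2's size factors, which passed 0 of the 23 and 3 of the 158.

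tRNA-Asn-GTT was the most abundant of the 7 anticodons, at 1813, 2551 and 4318 RPM summed over its references in the knockout and 2302, 2152 and 4531 in wild type. The highest value of each genotype was that of replicate 3. tRNA-Trp-CCA followed with 1126, 1161 and 1921 in the knockout and 1128, 1303 and 1616 in wild type, below every tRNA-Asn-GTT library in wild type but overlapping it in the knockout. In order of the knockout means, tRNA-Arg-TCG came next (1360 ± 403 in the knockout and 1294 ± 32.2 in wild type), then tRNA-Arg-TCT (1140 ± 190 and 1129 ± 28.7), tRNA-Arg-CCG (989 ± 86.7 and 1177 ± 121), tRNA-Arg-CCT (730 ± 75.2 and 788 ± 83.8) and tRNA-Arg-ACG (563 ± 169 and 655 ± 35.4; SD, n = 3 each). Of these neighbours tRNA-Arg-CCG and tRNA-Arg-CCT did not overlap in either genotype. In the knockout every other pair of neighbours overlapped, tRNA-Arg-CCT and tRNA-Arg-ACG included, and in wild type that last pair did not. Nor did tRNA-Arg-TCG (1319, 1305 and 1258) and tRNA-Arg-TCT (1102, 1125 and 1159) overlap in wild type.

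The reference with the most reads over all libraries was named for each anticodon. In tRNA-Asn-GTT, chr10.trna381 (chr10:79711904-79711977, plus strand) held 82.1% to 87.0% of the reads of its anticodon, at 1515, 2129 and 3545 RPM in the knockout and 1930, 1785 and 3941 in wild type. Its log2 fold change was -0.09 (95% interval -1.09 to 0.90; edgeR adjusted p = 0.978). In tRNA-Trp-CCA, chr10.trna857 (chr10:90644157-90644228, minus strand) held 59.0% to 75%, at 779, 750 and 1440 in the knockout and 676, 768 and 1083 in wild type. Its log2 fold change was 0.23 (95% interval -0.53 to 1.00; edgeR adjusted p = 0.972).

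Among the arginine tRNAs, chr11.trna1234 (chr11:115274618-115274690, minus strand) held 97.0% to 98.8% of tRNA-Arg-CCT reads, at 732, 782 and 641 RPM in the knockout and 727, 863 and 722 in wild type. In tRNA-Arg-CCG, chr11.trna945 (chr11:106874180-106874252, plus strand) held 41.3% to 64.3%, with 553, 565 and 498 in the knockout and 486, 602 and 680 in wild type. In wild-type replicates 1 and 2 chr17.trna994 was higher, at 680 and 672. In tRNA-Arg-ACG, chr13.trna951 had 257, 375 and 567 in the knockout and 428, 398 and 569 in wild type. Reads were divided more evenly in tRNA-Arg-TCG, where chr13.trna948 (chr13:23618325-23618397, minus strand) held 34.6% to 38.5% with 363, 478 and 681 in the knockout and 481, 477 and 435 in wild type. In wild-type replicate 3 chr13.trna74 was higher, at 452. In tRNA-Arg-TCT, chr19.trna637 (chr19:12086078-12086163, minus strand) had 421, 497 and 594 in the knockout and 433, 466 and 526 in wild type. In all 5 genes the genotypes overlapped, and log2 fold changes lay between -0.22 (chr13.trna951, 95% interval -0.97 to 0.54) and 0.13 (chr13.trna948, 95% interval -0.48 to 0.74), with edgeR adjusted p from 0.972 to 0.978.

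**Figure D5:**
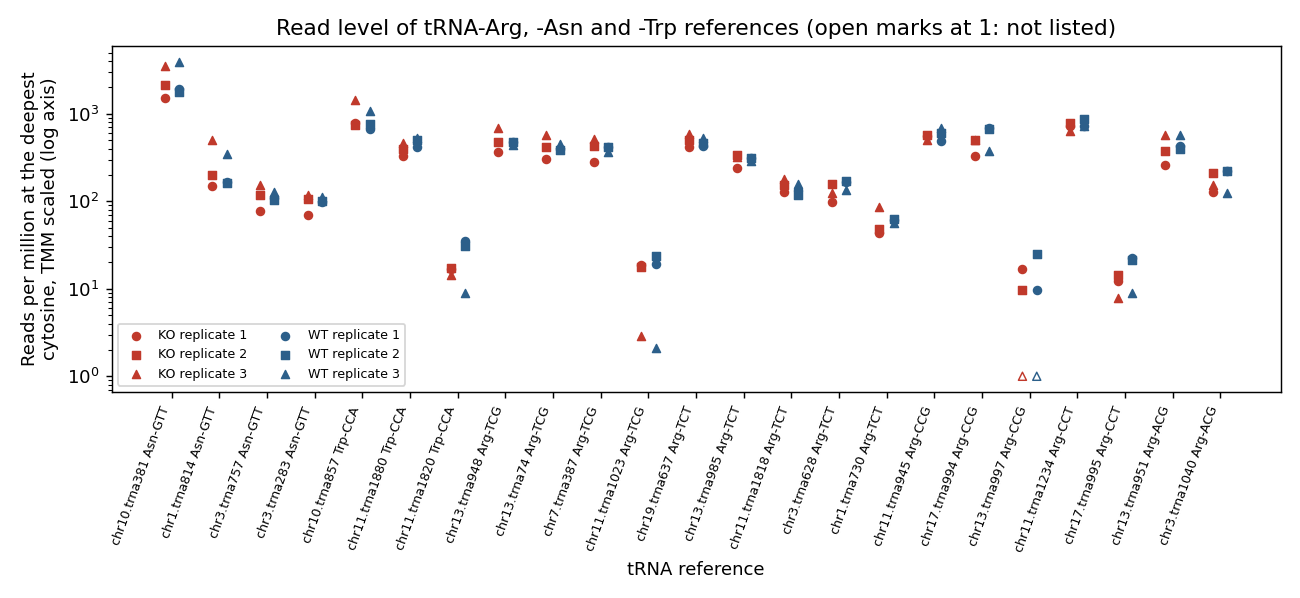
Read level of the 23 tested Arg, Asn and Trp references (y axis, TMM-scaled RPM at the deepest cytosine, log axis), with knockout (KO, red) left of wild type (WT, blue) and 1 marker shape per replicate. The tRNA-Asn-GTT gene chr10.trna381 is the highest, and 4 references lie under 40 RPM.

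Without both replicate 3 libraries, 2 of the 23 references passed, both lower in the knockout, and 14 of 158 over all tRNAs. These were chr11.trna1820, with a log2 fold change of -0.98 (95% interval -1.52 to -0.43; edgeR adjusted p = 0.0229), and the tRNA-Arg-CCG gene chr17.trna994, with -0.75 (95% interval -1.18 to -0.31; edgeR adjusted p = 0.0304). Over the other settings their adjusted p ran from 0.335 to 0.994 and from 0.479 to 0.994. In chr17.trna994 (chr17:23687230-23687302, minus strand) the levels were 329, 498 and 498 in the knockout and 680, 672 and 378 in wild type, with wild-type replicate 3 within the knockout range. In chr11.trna1820 they were 16.8, 17.1 and 14.5 in the knockout and 35.2, 30.5 and 9.02 in wild type, with wild-type replicate 3 the lowest of the 6. The part of replicate 3 in these values was not tested.

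The references left out of the read-level test held few reads. The tRNA-Trp-CCA gene chr13.trna107 was listed in 1 library, wild-type replicate 2, with 3 reads, the tRNA-Arg-CCT gene chr11.trna1022 in 3 libraries, and the tRNA-Asn-GTT gene chr3.trna285 in 5. For the cytosines of these 3 genes no methylation level could be given at this depth.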

How the data were processed

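RNA bisulfite sequencing was analysed in 6 small-fraction libraries, 3 Dnmt2-/- and 3 wild type. Per the file headers, the deposited files give for each cytosine the coverage, a raw count of reads, and the unconversion ratio, the fraction of unconverted reads. BSMAP and build mm9 are named in the submitters' processing notes; their version, parameters and filters were not given in the sources used here. No cytosine with under 3 reads was listed. Multiplying coverage by ratio gave whole numbers throughout (tolerance 0.01), so non-converted and converted counts were recovered. Intervals cover no bias of library making, and without molecular identifiers reads cannot be taken as independent molecules.

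Genotypes were compared per cytosine with edgeR 4.0.16 in R 4.3.3 (quasi-likelihood, a term per library, interaction of genotype with conversion), fitted over all tRNA cytosines with coverage of 10 or more in all 6 libraries and mean non-conversion of 5% or more. Calls within a genotype used an exact binomial test (1-sided) against the library background (pooled non-conversion over cytosines at 10% or less), combined by Fisher's method, with Benjamini-Hochberg adjusted p under 0.05 and 10% or more in each library. Read levels were tested with edgeR and TMM. Alternatives used limma 3.58.1, DESeq2 1.42.0 and Fisher's exact test. The tests were also run on simulated data, in which replicate 3 was not made to stand apart in non-conversion or read level. Those data therefore cannot tell how the tests handle that departure. Positions count back from the gene's last base as 73; in the 4 longer tRNA-Arg-TCT genes those before the extra bases count from the 5′ end. A base number counts from the 5′ end of the reference. No sequence of these tRNAs was at hand, so none is shown.

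Deviations from the group mean correlated between same-numbered libraries of the genotypes at 0.278, 0.205 and 0.506 (non-conversion) and 0.529, 0.544 and 0.742 (read level). The rule that each exceed 0.1 was met, so numbers were treated as pairs in the fit with a replicate block. Differently numbered libraries of replicates 1 and 2 correlated as much (0.228 and 0.300 for non-conversion, 0.687 and 0.550 for read level), so the values do not tell pairs 1 and 2 from each other. Those of replicate 3 with the others correlated negatively. Deviations from a group mean cancel out within a genotype, so the positive value for replicate 3 forces this in part. The negative values are thus no separate sign that replicate 3 stands apart. Named were all Arg, Asn and Trp cytosines called methylated or passing a test, the 5 of the 6 tested with the largest difference, the most-read reference per anticodon and references passing the level test; chr13.trna985 base 75, chr19.trna637 base 50, chr17.trna994, chr11.trna1820 and the T-stem, intron and coverage examples were chosen after their values were seen. The tRNAs and the lists were chosen with earlier results of these data known. Summed coverage was 26090449 to 55009793 in the knockout and 25431862 to 29784825 in wild type.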

Additional observations from a re-analysis of the deposited data

How the results depend on the processing

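Coverage minimums of 5 or 30, other minimum levels, another background and leaving out single libraries kept 4 or 5 Arg, Asn and Trp cytosines called in each genotype, 4 where 30 reads were asked for. In the methylation test 0 passed under every setting but Fisher's exact test on summed counts, where 1 did; over all tRNAs 94 passed there, 27 with the replicate block and 11 to 33 when libraries were left out, 33 without both replicate 3 libraries. The block changed no call among these tRNAs. Leaving out libraries turned the sign of small differences that never passed a threshold with a library left out, in percentage points from -0.18 to 2.28 at chr1.trna730:50, -3.44 to 0.714 at chr13.trna951:49, -3.61 to 5.09 at chr17.trna995:67, -1.30 to 4.32 at chr3.trna1040:56 and -12.2 to 0.783 at chr3.trna628:6. The background difference, 0.0833 percentage points, ran from -0.00225 to 0.172. In the read-level test over all tRNAs, 3 passed with DESeq2, 7 with the replicate block and 0 to 14 with libraries left out; of Arg, Asn and Trp references 0 to 2 passed, 2 without both replicate 3 libraries. Log2 fold changes ran from -0.49 to 0.37 (chr10.trna381), -0.14 to 0.46 (chr10.trna857), -0.25 to 0.013 (chr11.trna945), -0.22 to 0.27 (chr13.trna948) and -0.049 to 0.17 (chr19.trna637, also -0.025 with DESeq2 and -0.0012 with limma). The causes were not tested. Depth limits chr17.trna995 base 67 most, at 11 to 34 reads per library.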
